A study of Homo sapiens with 24 samples.

Results

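The genes whose transcripts carried m6A-seq peaks in human islet-like organoids (hILO) were compared with those in pancreatic progenitors (PP), gene by gene. A gene was a member when the deposited peak list of either stage held at least 1 peak on it, which gave 15154 of the 25136 genes with a peak in any of the 6 lists of the series. The question the comparison addresses is which transcripts gain, lose or keep the mark when progenitors become islet-like cells. Of the 15154 genes, 3255 had peaks in hILO and none in PP (gained, 21.5%), 1796 had peaks in PP and none in hILO (lost, 11.9%) and 10103 had peaks in both (kept, 66.7%).

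Both stages came from 1 differentiation protocol applied to MEL1, an established human embryonic stem cell line kept on CF1 feeder cells, which the study used as an INS-GFP/W reporter with GFP under the insulin promoter. PP were made on plates with activin A and CHIR99021, then KGF, then with LDN-193189 (a BMP receptor inhibitor), GDC-0449 (a hedgehog inhibitor), retinoic acid, vitamin C and EGF. hILO were PP cells taken further as aggregates in suspension with zinc sulfate, heparin, 616452 (an ALK5 inhibitor), T3 (thyroid hormone) and vitamin C. The first of 2 successive hILO media also held LDN-193189 and compound E (a gamma-secretase inhibitor), and the second, in which hILO were finished, held the antioxidants N-acetyl cysteine and trolox in their place. Each stage had 2 libraries of RNA precipitated with a SYSY antibody against m6A (IP) and 2 of the same fragments before precipitation (input), all from enriched mRNA, as 8 of the 24 samples of the series. All came from 1 cell line, and the study calls the 2 libraries of a kind biological replicates. The deposited lists give 1 value per peak, pooled over the libraries, so no value has a replicate spread, no test between the stages was possible, and the errors below cover counting only.

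N6-methyladenosine is placed on mRNA by a writer complex around METTL3 and METTL14, is removed by the demethylases FTO and ALKBH5, and is bound by readers of the YTH and IGF2BP families that affect how fast a transcript is translated or decays. It lies mostly in GGAC-like sequence, near stop codons and in long exons. In the pancreas, progenitors marked by PDX1, NKX6-1 and SOX9 leave Notch signalling to become endocrine cells, which make hormones, granules and the machinery that couples glucose to secretion.

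To show what the antibody enriched on transcripts of this transition, short stretches around the GGAC nearest to the middle of a peak were read from GRCh38 on the transcript strand. Capitals mark GGAC. The method resolves a peak and not a base, so the capitals mark a sequence match and not a measured site. For each gene the most enriched peak that held such a stretch was used, and the region named is that of the stretch itself.
INS (gained, coding, chr11:2160908-2160928, minus strand): ccctctggGGACctgacccag
PCSK1 (gained, coding, chr5:96398969-96398989, minus strand): cttgtgaaGGACaagaaaatg
PAX6 (gained, 3UTR, chr11:31789749-31789769, minus strand): tgaaacaaGGACctttgtata
TPH1 (gained, 3UTR, chr11:18019885-18019905, minus strand): gtggtttaGGACtgagactgt
DLL1 (lost, 3UTR, chr6:170282633-170282653, minus strand): tgcactatGGACagttgctct
PROX1 (lost, coding, chr1:213997619-213997639, plus strand): caagttgtGGACactgtggtc
SPRY4 (kept, coding, from the PP list, chr5:142314900-142314920, minus strand): cccaaagcGGACccggggcgg
CDX2 (kept, 5UTR, from the hILO list, chr13:27969167-27969187, minus strand): agagggagGGACcgcctcgga

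GGAC was present in 62.3% of the 1788 PP peaks of 200 nt exonic length and in 59.3% of the 2031 such hILO peaks, counted on the transcript strand. Among 195726 stretches of 200 nt of coding isoforms outside the peaks of both lists the share was 45.2%. On the opposite strand the shares were 37.5%, 40.1% and 41.9%, so the share was higher in peaks on the transcript strand only. A match is a description of the letters in a window.

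The 2 lists were not equally deep. PP had 29083 peaks on 11899 genes with 6987612 input and 30944774 IP reads in peaks, and hILO had 31519 peaks on 13358 genes with 28463998 input and 77537744 IP reads. The median peak held 87 input reads in PP and 302 in hILO. In hILO the 20 most read peaks held 22.0% of the input reads in peaks, against 5.34% in PP. The peaks with most were 965742 input reads over the last coding bases and the 3UTR of AHSA1 and 581989 in 75 nt of the 3UTR of ITGA8. The p-values deposited for the peaks also differed in level, and 61.8% of PP peaks and 94.3% of hILO peaks had p below 1e-05. The study's methods name this as the calling threshold, so both lists hold peaks that miss it, PP more often than hILO, and a lost gene can rest on such peaks. With peaks limited to p below 1e-05, 4935 genes were gained in place of 3255.

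The gained genes had 5018 hILO peaks with a median of 279 input and 676.5 IP reads. The lost genes had 2557 PP peaks with a median of 54 input and 257 IP reads. Peaks on kept genes had medians of 307 input reads in hILO and 91 in PP, so the peaks of lost genes were the thinnest of these sets. A single peak made the call for 68.0% of gained genes (2214 of 3255, 66.4% to 69.6%, Wilson 95% interval) and 72.6% of lost genes (1304 of 1796, 70.5% to 74.6%). Among kept genes 36.9% had a single peak in PP. Protein-coding genes made up 66.3% of gained, 60.8% of lost and 84.5% of kept genes, and lncRNA genes 24.8%, 28.5% and 10.9%. By number 2157 coding genes were gained, 1092 lost and 8538 kept, so the shares of all genes given below are not those of coding genes. Among coding genes the median exonic length was 4623 nt for gained, 4786 nt for lost and 6007.5 nt for kept genes.

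Gained genes had a larger share of their peaks in the 3UTR than lost genes. A peak was placed by its midpoint on the longest coding isoform, so a peak counted in one region can reach into the next. Of the peaks that could be placed, 47.1% of those on gained genes lay in the 3UTR (45.3% to 48.9%), against 35.8% on lost genes (33.3% to 38.4%). The 5UTR held 5.64% and 9.19%, and the coding sequence 47.2% of gained peaks and 766 of the 1393 placed peaks of lost genes. Kept genes lay between in the 3UTR, at 41.9% in hILO and 38.4% in PP. Within kept genes, PP peaks without a counterpart in hILO had 28.2% in the 3UTR and 11.2% in the 5UTR, while hILO peaks without a counterpart in PP had 41.7% and 3.77%. The Wilson intervals of gained and lost genes do not overlap in any of the 3 regions, but peaks are not replicates and the lists differ in depth.

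Many gained genes carried the mark in other cells of the series. A peak was listed for 48.8% of gained genes in pluripotent cells (hPSC), for 45.3% in definitive endoderm (DE) and for 53.5% in wild-type progenitors of the second batch (WT PP), for which total RNA was precipitated directly and another library kit was used. For lost genes the shares were 60.1%, 51.5% and 66.1%, and for kept genes 90.5%, 89.5% and 87.1%. Of the gained genes 74.7% had a peak in at least 1 of these lists. A gained gene is therefore one that the first-batch PP list lacks, and 1743 of the 3255 had a peak in the other progenitor list. The PP list holds no reads for genes without a peak, so a missing peak, a low transcript level and a low depth cannot be told apart.

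**Figure D1:**
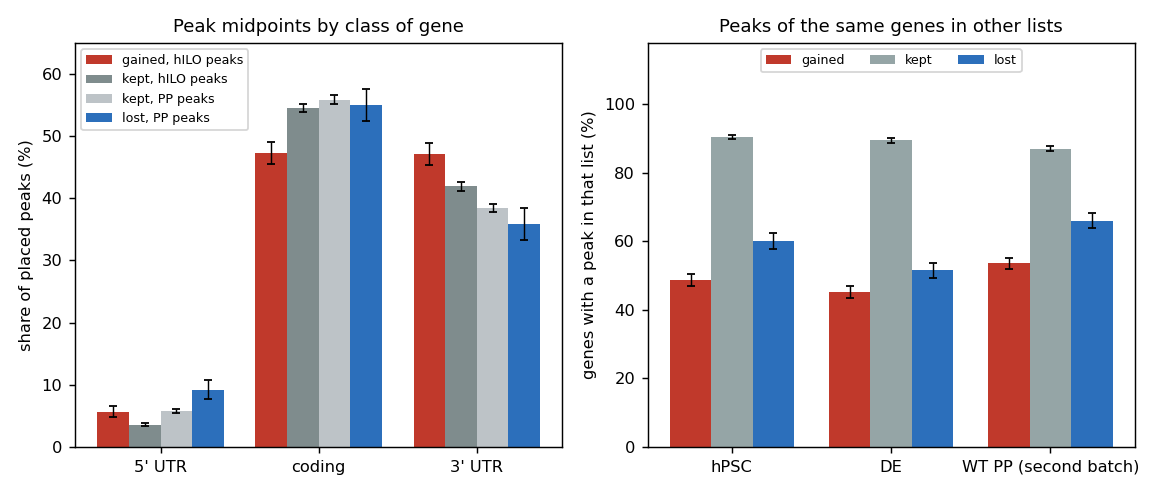
Left, share of placed peaks (%) with the midpoint in the 5′ UTR, coding sequence or 3′ UTR, for gained, kept and lost genes. Right, share of gained, kept and lost genes (%) with a peak in the hPSC, DE and WT PP lists. Bars are shares and lines Wilson 95% intervals. Gained genes had 47.1% of peaks in the 3′ UTR and lost genes 35.8%, and 53.5% of gained genes had a peak in WT PP.

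The islet hormones were listed with peaks in hILO alone. INS (insulin) had 2 hILO peaks with 49368 input and 108969 IP reads, one of 375 nt over the 5UTR (219 nt) and the start of the coding sequence (156 nt) and one of 100 nt mostly in the 3UTR (76 nt). Their log2 enrichments were 0.98 and 0.83. SST (somatostatin) had 2 peaks with 4588 input and 8336 IP reads, of which the 3UTR peak was more enriched, at 1.81, than the peak over the 5UTR and the start of the coding sequence, at 0.86. PYY (peptide YY) had 1 peak with 487 input and 1016 IP reads, and GCG (glucagon) had 1 with 241 and 528. None of the 4 had a peak in hPSC, DE or WT PP. PPY, GHRL and IAPP had no peak in either list. In bulk RNA, fewer cells of a type and less RNA per cell cannot be told apart.

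Across 5 lists of islet genes with 73 members, 63 had a peak in PP or hILO. Of these, 40 were gained (63.5%, beside 21.5% of all genes), 23 were kept (beside 66.7%) and none was lost, beside 11.9% of all genes. They had 49 peaks in PP and 167 in hILO. Of the 40 gained members, 16 had a peak in WT PP, 19 in hPSC and 13 in DE, so 24 were gained against both progenitor lists.

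Among proteins that process and store hormones, 7 of 13 with a peak were gained, beside 21.5% of all genes. PCSK2 and PCSK1, the convertases that cut prohormones, had 3 hILO peaks each, with 6636 and 2382 input reads. PAM, which amidates peptides, had 3 peaks with 1319 input reads. The granule proteins SCG3 and PTPRN had 5 and 3 peaks, and SCG5 and PTPRN2 had 1 and 5. PAM, SCG5 and PTPRN2 also had peaks in WT PP. The granins CHGA and CHGB were kept. CHGA had 3 peaks with 827 input reads in PP and 1 peak of 25 input reads in hILO. CHGB had 1 peak in each list, 4876 input reads over 225 nt in PP and 4733 over 2050 nt in hILO, a density difference of −4.31 (log2, relative to the median of kept genes, as explained for the kept genes) and of −1.40 when reads were not divided by covered length. SLC30A8, the zinc transporter of insulin granules, went from 1 peak with 38 input reads to 4 with 1518.

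Exocytosis genes were gained in 9 of 14 cases, beside 21.5% of all genes. STX1A (syntaxin 1A) had 2 hILO peaks with 6455 input reads. RIMS2, a scaffold of the release site, had 11 with 4931, RAB3B 8 with 5721 and UNC13A, a priming factor, 3 with 1008. RIMS2 also had 7 peaks in each of hPSC, DE and WT PP, and RAB3B had 5, 5 and 6. STX1A had none there. Of 4 kept genes with 50 input reads in both lists, 2 were 2-fold higher and 2 lower in density relative to the median. Over all genes these shares were 26.7% and 26.5%. When reads were not divided by covered length, 1 was higher and 1 lower, beside 2357 and 2206 of 8290 genes. SNAP25, a partner of syntaxin, had 75 input reads in PP and 1153 in hILO, at 1.30, and VAMP2, a vesicle partner of the same complex, had 96 and 61, at −3.74. Without division by length these were 2.56 and −2.01. RAB27A, a granule GTPase, was at −2.14 over 50 and 300 nt, and at 0.16 without division by length. CPLX2 was gained on 20 input reads only.

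Glucose sensing genes were gained in 10 of 14 cases, beside the same 21.5%. KCNJ11 and ABCC8, the pore and the sulfonylurea subunit of the KATP channel, had 4 hILO peaks each with 3633 and 1125 input reads. KCNJ11 had 6 peaks in WT PP and ABCC8 none. SLC2A2, a glucose transporter, had 1 peak with 4390 input reads. The calcium channel gene CACNA1A had 8 with 2258, and the incretin receptor genes GLP1R and GIPR had 3 each with 376 and 925. G6PC2, GCGR and CACNA1C were gained on 92, 73 and 16 input reads.

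Endocrine transcription factors were gained in 10 of 18 cases, against 21.5% over all genes. PAX6 had 4 hILO peaks with 1111 input reads, PAX4 3 with 358 and ISL1 1 with 109. FEV had 2 peaks with 5488 input reads and LMX1A 1 with 339. Of 6 kept genes with enough reads, 2 were 2-fold higher and 3 lower in density relative to the median. Over all genes these shares were 26.7% and 26.5%. Without division by length 2 were higher and 1 lower, beside 2357 and 2206 of 8290 genes. The lower one by both was GLIS3, with 1095 and 859 input reads, at −1.56 and −1.71, and at −1.85 in overlapping peaks. Among the other kept genes, NKX2-2 went from 1 peak with 14 input reads to 3 with 3086, and RFX6 from 1 with 101 to 4 with 1640. INSM1 went from 325 to 521 input reads, a relative density difference of −2.59 over 175 and 800 nt, and of −0.68, within 2-fold, when reads were not divided by covered length. For RFX6 the relative change was 1.31 over all peaks and −1.70 in the peaks that overlap between the lists. NEUROD1 shares its deposited gene entry with an overlapping gene, so its 91 and 2296 input reads are uncertain. NEUROG3, MAFA, IRX1 and POU3F4 had no peak.

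**Figure D2:**
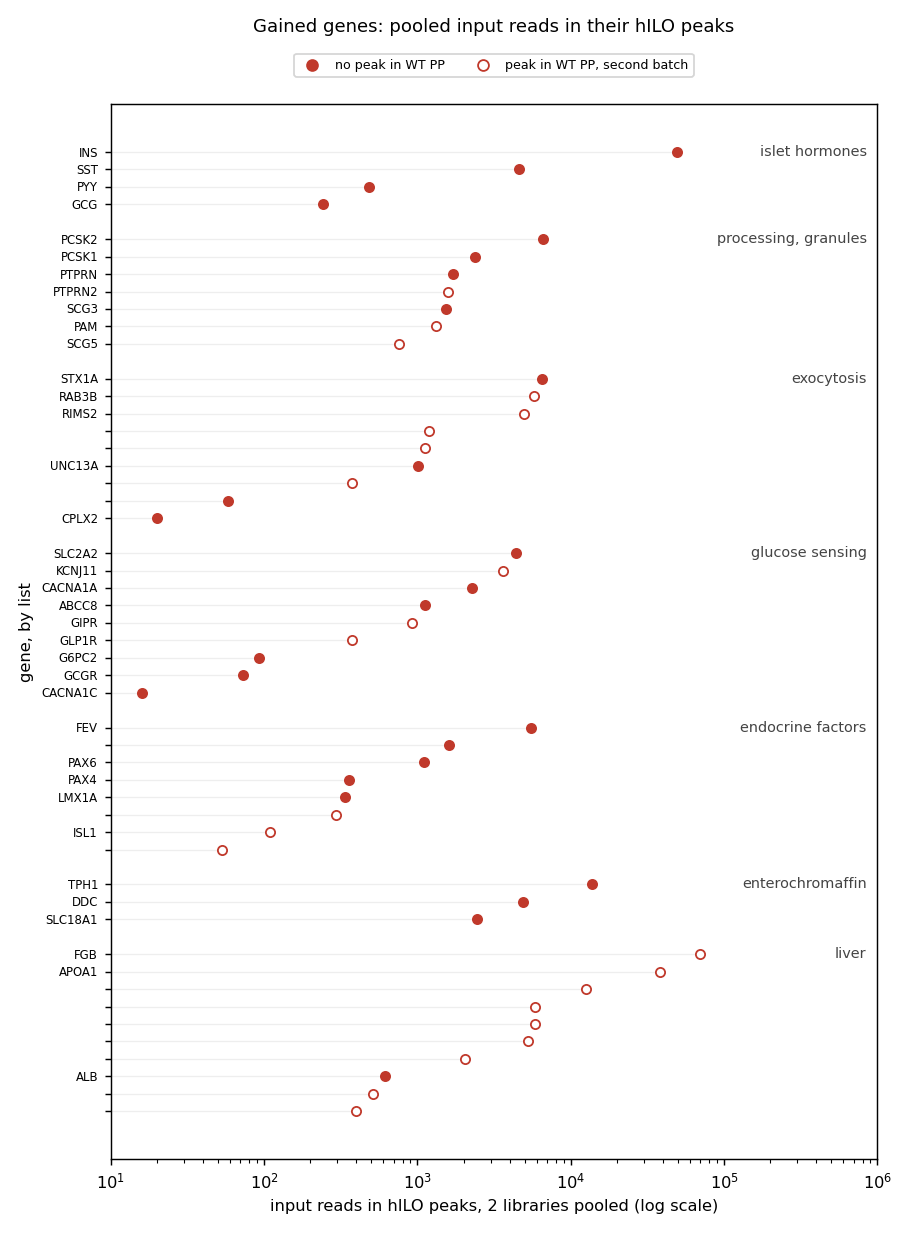
Input reads in the hILO peaks of gained genes (log scale, 2 libraries pooled) of the 5 islet lists, the enterochromaffin list and the liver list. Filled points are genes without a peak in WT PP and open points genes with one, and the genes named in the text are labelled. INS lies at 49368 reads, TPH1 at 13681 and FGB at 70077, and 9 of the 10 liver genes are open points.

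Markers of other cells were gained beside the islet genes. Of 4 enterochromaffin markers, 3 genes of serotonin synthesis and storage were gained, beside 21.5% of all genes, and ADRA2A was kept. TPH1 (tryptophan hydroxylase) had 3 hILO peaks with 13681 input and 30663 IP reads, SLC18A1 (a monoamine transporter) 2 with 2460 input reads and DDC 2 with 4876. None had a peak in hPSC, DE or WT PP. Liver genes were gained in 10 of 11 cases (90.9%, beside 21.5% of all genes), among them FGB (fibrinogen beta) with 6 peaks and 70077 input reads, APOA1 with 3 and 38393 and ALB (albumin) with 1 and 611. Of these 10, 9 had a peak in WT PP, which leaves ALB. APOB was kept, with 1 peak in PP and 14 in hILO. The input reads of the liver list came to 5508 per 1000000 input reads in peaks in hILO and 19.9 in PP, and those of the islet hormone list to 1921 in hILO and 0 in PP. The part of these cells in the gained calls was not tested.

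Of the intestinal markers, CDX2 went from 259 to 7644 input reads with 3 peaks in each list, a relative density difference of 3.56, and of 3.84 in the overlapping peaks. VIL1 (villin) went from 1 peak with 86 input reads to 6 with 10652, MUC2 was gained with 3 peaks and 3197 reads, and OLFM4 was lost. None of 10 acinar and none of 5 endothelial markers had a peak in either list. The 6 duct markers with a peak were kept, beside 66.7% of all genes. Of 4 with enough reads 3 were 2-fold higher and 1 lower in relative density, beside 26.7% and 26.5% of all genes. Among the higher, CFTR had 9 peaks and 795 input reads in PP and 7 peaks and 8070 reads in hILO. The lower was MUC1, at −3.08, and at −1.78 without division by length. Among mesenchymal markers, COL1A2, PDGFRA and LUM were lost, with 282, 1877 and 130 input reads in PP, and PDGFRB and TWIST1 were gained, which is 3 lost and 2 gained of 8 with a peak, beside 11.9% and 21.5% of all genes. Of the 3 kept, VIM (vimentin) was at 2.31, COL1A1 at 1.33 and COL3A1 at −0.04 in relative density, and without division by length COL1A1 was at 0.90 and COL3A1 at −1.90, the latter at 1.73 in overlapping peaks. Of 6 neuronal markers STMN2 was gained and the others had no peak.

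Progenitor transcription factors had a peak in both lists in 19 of 20 cases, beside 66.7% of all genes. The exception was PROX1, a homeobox factor of early pancreas, with 7 PP peaks, 579 input and 2646 IP reads and none in hILO. PDX1 had 4 peaks with 2654 input reads in PP and 2 with 4581 in hILO, NKX6-1 3 with 2489 and 2 with 1688, and SOX9 2 with 4111 and 1 with 4893. ONECUT2 had 8 and 12 peaks. The list as a whole had 75 peaks in PP and 67 in hILO. PTF1A and NKX6-2 had no peak.

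On the scale of reads per 1000000, the median kept gene had a lower density in hILO. Of 10103 kept genes, 8290 had at least 50 input reads in both lists. Their median log2 difference in input reads per kilobase of peak and per 1000000 reads in peaks was −0.95 (quartiles −2.02 and 0.15) and that of IP reads −0.99, so on this scale 13.2% were 2-fold higher and 48.6% 2-fold lower in input, and 11.7% and 49.7% in IP. The few peaks with very many reads in hILO enter the total, and without the 20 most read peaks the medians were −0.67 and −0.59. Differences in density below are therefore given relative to the median, on the log2 scale. By that measure 26.7% of genes were 2-fold higher and 26.5% lower in input, and 25.6% and 25.6% in IP. The median counting error was 0.10 for input and 0.05 for IP, so 2-fold differences mostly exceed counting error, and the spread between libraries is not known. Covered length enters these differences. Of the 4408 genes called 2-fold higher or lower in input, 3358 kept the call when reads were not divided by length and 330 turned to the other sign. Of 2999 of them with a value in overlapping peaks, 2348 kept the call and 233 turned to the other sign. Without division by length, 2357 of the 8290 genes were 2-fold higher and 2206 lower relative to the median.

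By input density, 9 of 18 progenitor factors were 2-fold lower and 2 higher, with a median of −1.003, beside 26.5% and 26.7% of all genes. When reads were not divided by covered length, 6 were lower and 1 higher. On the scale per 1000000 reads, 15 were lower, beside 48.6% of all genes. NKX6-1 was at −1.59 (counting error 0.05), MNX1 at −1.49 and GATA6 at −2.22, while ONECUT1 and FOXA1 were at 1.60 and 1.59. PDX1 and FOXA2 differed by −0.38 and −0.16. In the overlapping peaks NKX6-1 was −1.93, MNX1 −1.73, ONECUT1 2.08 and FOXA1 1.67, while GATA6 had no value. GATA6 covered 225 nt in PP and 800 nt in hILO, and without division by length it was at −0.67 and ONECUT1 at 0.94, both within 2-fold.

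The Notch list held 5 lost genes of 20 with a peak, beside 11.9% of all genes, and 3 with peaks limited to p below 1e-10. They were DLL1, a ligand, with 4 PP peaks and 230 input reads, the receptor NOTCH4 with 2 and 130, the target HEYL with 1 and 110, the feedback inhibitor NRARP with 2 and 79, and DTX1 with 2 and 68. All 5 had peaks in WT PP. Among the other members RFNG and HES4 were gained. Of 12 kept genes with enough reads, 3 were 2-fold higher and 4 lower relative to the median, beside 26.7% and 26.5% of all genes. Their median was 0.17. Per 1000000 reads 1 was higher and 6 lower, beside 13.2% and 48.6% of all genes. The receptors NOTCH2 and NOTCH3 were among the lower, with 4516 and 5948 input reads in PP and 1205 and 229 in hILO, relative differences of −2.91 and −4.77, and of −6.83 and −5.60 in overlapping peaks. HEY1, a target also among the lower, was at −1.16, and at 1.56 in overlapping peaks. The ligand DLL4 was at 1.61 and the target HEY2 at 1.87, and without division by length at 2.53 and 0.16. HES1, another target, was the highest at 3.24, from 51 to 1449 input reads with 2 peaks in each list, for which no value in overlapping peaks could be had. Compound E, which blocks release of the Notch intracellular domain, was in the first hILO medium and not in the second, and the part of the media in these differences was not tested.

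Of the EGF and FGF list, 16 of 18 were kept, beside 66.7% of all genes. Of 14 with enough reads 3 were 2-fold higher and 6 lower relative to the median, beside 26.7% and 26.5% of all genes. Their median was −0.56. The feedback inhibitors SPRY1, SPRY2 and SPRY4 had the lowest relative differences of the list, at −5.51, −10.11 and −5.82, and −6.13, −7.91 and −7.48 without division by length. SPRY2 had 5787 input and 37664 IP reads in 1 PP peak of 125 nt over the 5UTR and the first coding bases, and 61 input and 179 IP reads in 1 hILO peak of 700 nt in the coding sequence. SPRY1 went from 1523 to 55 input reads, SPRY4 from 6 peaks with 7646 to 2 with 109, and DUSP6, a phosphatase of ERK, from 12551 to 2115. SPRED2 was lost, with 4 PP peaks and 797 input reads. For DUSP6 the relative difference was −3.85, and −3.67 in overlapping peaks. For SPRY4 it was −1.10 in overlapping peaks, since 7146 of the PP reads lay in 1 3UTR peak that hILO lacked, and for SPRY1 and SPRY2 no value in overlapping peaks could be had. DUSP4 was at 1.61. DUSP5 was at 2.44, and at −0.014 when reads were not divided by covered length. FGFR3 reached 46839 input reads in hILO from 46 in PP, one of the narrow peaks of very many reads. EGF was named for the medium of PP and not for that of hILO, and its part in these values was not tested.

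In the BMP list 13 of 15 were kept, beside 66.7% of all genes. Of 11 with enough reads, 3 were 2-fold higher and 4 lower relative to the median, beside 26.7% and 26.5% of all genes. Their median was 0.58. Per 1000000 reads 1 was higher and 5 lower, beside 13.2% and 48.6% of all genes. The higher relative to the median were BMP2, a ligand, at 1.03, SMAD9, a signal transducer, at 1.78, and SMAD6, an inhibitor, at 2.41. In overlapping peaks SMAD9 was at 0.80 and SMAD6 at 0.96, and without division by length BMP2 was at 0.67 and SMAD6 at 0.39, all within 2-fold. Of the ID genes, direct targets of BMP signalling, ID1 had 1432 input reads in PP and 140 in hILO, ID2 2247 and 158 and ID4 181 and 81. The relative differences were −3.96, −5.36 and −4.23, without division by length −4.71, −5.18 and −2.51, and in overlapping peaks −1.44 for ID1 and −5.25 for ID2, whereas ID3 was gained with 2 peaks and 2158 reads. BMPR1B was lost. LDN-193189 was in the PP medium and the first hILO medium and not in the second, and its part in these values was not tested. In the TGF-beta and activin list 4 of 20 were gained (20%, near the 21.5% of all genes) and none was lost, and of 15 with enough reads 2 were higher and 3 lower, beside 26.7% and 26.5% of all genes. Without division by length 4 were higher and 1 lower. Among the gained were INHBA with 7 hILO peaks and 464 input reads, INHBB with 5 and 981 and TGFB2 with 4 and 1331. The receptor genes TGFBR1 and TGFBR2 were kept, at 0.12 and −1.84, the latter at −0.31 without division by length.

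Of 12 thyroid hormone genes with a peak, 9 were kept and 3 gained, beside 66.7% and 21.5% of all genes. Of 9 with enough reads 5 were 2-fold higher relative to the median, beside 26.7% of all genes, and none was lower, with a median of 1.20. Without division by length 6 were higher and 1 lower. Per 1000000 reads 1 was higher and 2 lower, beside 13.2% and 48.6% of all genes. By IP reads relative to the median 2 were higher and 1 lower, beside 25.6% and 25.6%. THRA, a receptor, went from 2 peaks with 103 input reads to 7 with 1590, THRB was gained with 5 peaks and KLF9, a T3 target, went from 131 to 915 input reads, a relative difference of 1.55 in overlapping peaks. Of the zinc list 3 of 5 were higher and 1 lower, beside 26.7% and 26.5% of all genes, and 2 and 1 without division by length. Among the higher, MTF1, a zinc-sensing factor, was at 2.16, and at 0.61 without division by length, and SLC39A10, a zinc importer, was at 2.80, and at 0.14 in overlapping peaks. SLC30A1, a zinc exporter induced by zinc, went from 105 to 2430 input reads with 2 peaks in each list, a relative difference of 3.49 and of 3.59 in overlapping peaks. T3 and zinc sulfate were named for the hILO media and not for those of PP, and their part in these values was not tested. In the retinoic acid list 8 of 10 genes with a peak were kept, beside 66.7% of all genes. There CYP26B1, which degrades retinoic acid, went from 73 to 1077 input reads, at 2.20.

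Cell proliferation genes held the most lost members, 9 of 23 with a peak (39.1%, beside 11.9% of all genes), and 5 with peaks limited to p below 1e-10. CDK1 had 1 PP peak with 4912 input reads, PCNA 2 with 877, E2F1 1 with 859 and CDK6 2 with 342. E2F2, E2F8, BUB1, PLK1 and CCNE2 had 43, 65, 49, 53 and 7. Of the 9, 7 had a peak in WT PP, the exceptions being CDK1 and CCNE2. Of 10 kept genes with enough reads, 3 were 2-fold higher and 4 lower relative to the median, beside 26.7% and 26.5% of all genes, with a median of −0.72. MKI67 was kept, with 21 peaks and 4638 input reads in PP and 16 and 4233 in hILO, at −1.24, and at −1.70 in overlapping peaks. CCND2, a G1 cyclin, went from 19199 to 6139 input reads, at −4.35, and at −3.01 without division by length. TOP2A, a topoisomerase, was at −1.96, and at −1.18 without it. MCM2, MCM3 and MCM5, helicase subunits, were at 2.26, 1.79 and 1.74, and MCM7, a subunit of the same helicase, at −1.72. Without division by length MCM3 was at 0.61 and MCM7 at −0.83. Of the CDK inhibitors, CDKN1C and CDKN2A were gained, with 215 and 101 input reads, and CDKN2B was at 2.13, and at 1.44 without division by length.

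The genes of the m6A machinery carried peaks themselves, 17 of 18 in both lists, beside 66.7% of all genes. The exception was the demethylase FTO, with 3 PP peaks, 192 input and 634 IP reads, and none in hILO. FTO had 4 peaks in WT PP, 1 in DE and none in hPSC. The other demethylase, ALKBH5, had 3 peaks in each list with 382 and 1286 input reads, a relative difference of 0.45. The writers METTL3 and METTL14 had 1 and 3 PP peaks and 2 and 3 hILO peaks, at −0.03 and 0.94. METTL3 covered 75 nt in PP and 225 nt in hILO, and without division by length it was at 1.27. WTAP had 4 and 5 peaks and ZC3H13 9 and 7. The reader YTHDF3 went from 7 peaks with 1233 input reads to 2 with 253, at −3.50, and RBM15B, a writer partner, was at −3.51, while YTHDC1, a nuclear reader, was at 1.18. In overlapping peaks RBM15B was at −1.89, and without division by length at −2.26. IGF2BP1 and IGF2BP2 had 30 and 294 input reads in PP and 821 and 135 in hILO. By input density 3 of 16 were 2-fold lower and 1 higher, beside 26.5% and 26.7% of all genes, and without division by length 3 were lower and 3 higher. Per 1000000 reads 10 were lower, beside 48.6%.

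Over the lists as deposited, about as many kept genes had more peaks in hILO as had fewer. Of the 10103 kept genes, 4051 had the same number (40.1%), 3044 had more in hILO and 3008 fewer, and the mean change was −0.0025 peaks. A change of 2 or more was found upward in 1186 (11.7%) and downward in 1177 (11.7%). With peaks limited to p below 1e-05, these counts were 1780 and 357. The median covered length was 375 nt in PP and 500 nt in hILO, and it was longer in hILO for 6179 genes (61.2%). DST, a giant cytoskeletal linker, had 21 peaks in PP and 41 in hILO, MACF1, its relative, 14 and 28, and APOB 1 and 14. TPR, a nuclear pore protein, had 4 and 12, and NPIPB5, a member of a family of near-identical copies and so uncertain, 2 and 10. In WT PP, the other progenitor list, DST had 34 peaks, MACF1 19, APOB 13, TPR 3 and NPIPB5 none. Among the genes with the largest differences toward fewer peaks were ANKRD11 from 22 to 13, MORN1 from 11 to 2, CIT from 10 to 1 and ALMS1 from 15 to 6. ANKRD11 covered 6650 nt in PP and 7975 nt in hILO.

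The peaks of PP on kept genes were more often shared than those of hILO. Of the PP peaks on kept genes 66.2% were shared with hILO by more than 50% of their exonic length, and of the hILO peaks 54.1% were shared with PP (14348 of 26501). The median kept gene had 83.3% of its PP peak bases inside hILO peaks, and 4925 genes had all PP peaks shared. For 1242 genes (12.3%) no PP peak was shared. Among the genes with many hILO peaks and none in PP were ANK2 and ADGRG4 with 14 each, RIMS2 with 11, NCKAP5 with 10, NFASC with 9 and CASR, the calcium-sensing receptor, with 9. ANK2, an ankyrin, had 9824 input reads in hILO and also 8 peaks in hPSC, 6 in DE and 1 in WT PP, whereas ADGRG4 had none in hPSC, DE or WT PP. In WT PP, NCKAP5 had 1 peak, CASR 3 and NFASC none. Among the lost genes with most PP peaks were ADGRV1 with 8, PROX1, EXPH5 and ZBTB46 with 7 each and CSPG4 with 6, all present in WT PP. By reads the lost genes were led by FOXD1, a forkhead factor, with 22067 input reads in 1 peak, and GJA4, a gap junction protein, with 11648 in 4.

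Enrichment of IP over input differed less than the reads. The median log2 difference in IP over input was −0.05 (quartiles −0.39 and 0.28, median counting error 0.11), and per 1000000 reads 210 genes were 2-fold higher (2.53%) and 321 lower (3.87%). Relative to the median 252 genes were 2-fold higher (3.04%) and 256 lower (3.09%). The other 93.9% lay within 2-fold, against 46.8% for input. All listed peaks had a deposited log2 enrichment of at least 0.585 in both lists. That floor limits how far IP over input can differ on kept genes, and input density has no such floor. Of the 4408 genes called by input, 4386 had the same direction in IP, and across the 8290 genes the 2 changes had a Spearman correlation of 0.95, as a description, since both are read from the same peaks and lengths. Input and IP over input had a correlation of −0.24. Genes 2-fold higher in input had a median IP over input of −0.19 relative to all genes, and genes 2-fold lower one of 0.14. Both measures contain the input reads, so the relation is given without a test.

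The highest relative differences in IP over input were those of ADAM9, a membrane protease, at 1.955 (counting error 0.21), AGR2, a secretory pathway protein, at 1.95 (0.14), RNGTT, the mRNA capping enzyme, at 1.93 (0.13), and ISOC1 at 1.88 (0.17). ADAM9 had 55 input reads in hILO. ISOC1 had 124 input and 267 IP reads in PP and 678 and 3192 in hILO. The lowest were those of TRAIP, a ubiquitin ligase, and ANKRD39. TRAIP had 178 input and 2734 IP reads in PP and 789 and 1317 in hILO in peaks of 125 nt, a relative difference of −2.44 (counting error 0.13), and ANKRD39 one of −2.15. In overlapping peaks these were −2.48 for TRAIP, −2.19 for ANKRD39, 1.89 for RNGTT and 1.84 for ISOC1. GATA6 was at −1.68 (0.11) and SPRY4 at 1.56 (0.15), the latter at 1.29 in overlapping peaks.

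**Figure D3:**
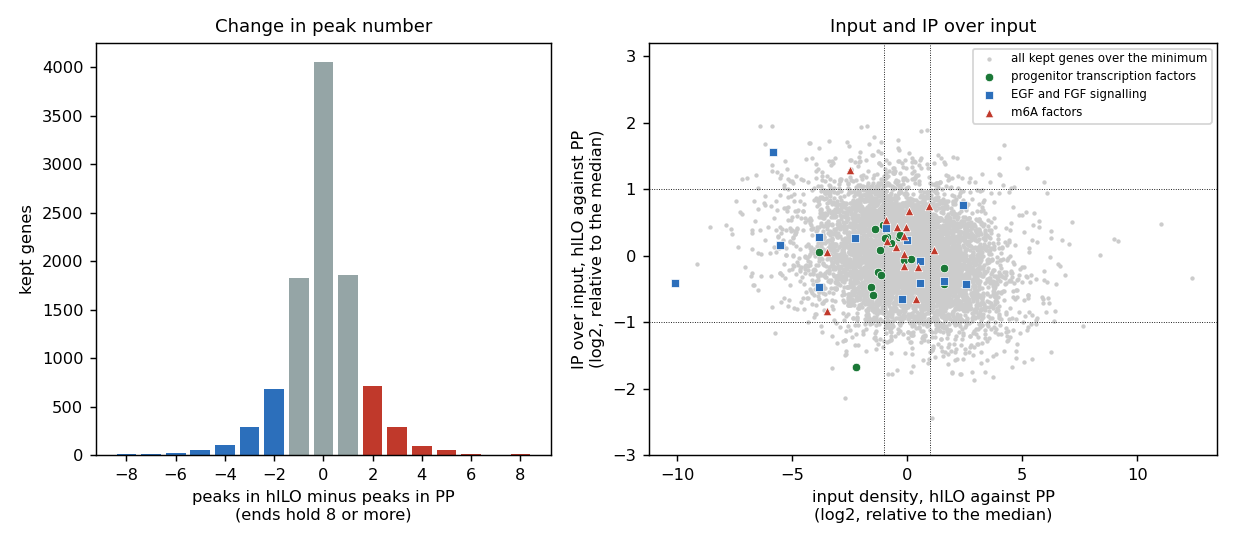
Left, number of kept genes by the difference in peak number, hILO minus PP, with changes of 2 or more coloured. Right, log2 difference in input density (x axis) and in IP over input (y axis) for 8290 kept genes, each relative to the median, with 3 gene lists marked and dotted lines at 2-fold. Input spreads widely while 93.9% of genes lie within 2-fold in IP over input, whose range is limited by the enrichment floor of the listed peaks.

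The differences in enrichment varied with base composition. Among 1466 genes whose peaks had a GC content below 40%, the median log2 difference in IP over input was 0.09, and among 702 genes at 60% or above it was −0.30. The log2 enrichment deposited for the peaks had medians of −0.28 and 0.01 in the same 2 sets. Over all 8290 genes the 2 measures had a Spearman correlation of 0.66. The part of base composition in the named differences was not tested. For TRAIP the deposited value differed by −2.25 and for ISOC1 by 1.36, so both measures gave the same direction there.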

How the data were processed

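Per the study's methods, the authors used fastp for trimming, HISAT2 for alignment (GRCh38) and exomePeak2 to call peaks. Each deposited list holds 1 set of peaks for a stage. The deposited lists give, per peak, input and IP read counts pooled over the libraries (whether summed or averaged is not stated), a log2 enrichment and a p-value. The deposited log2 enrichment is at least 0.585 in both lists, and the deposited p-value reaches 0.046 in PP and 0.028 in hILO. The calling threshold given in the methods, p below 1e-05, is met by 61.8% of the PP and 94.3% of the hILO peaks. The 2 lists were normalized separately.

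Each peak was assigned to 1 gene of its gene entry by exonic overlap in GENCODE 44, preferring coding and non-readthrough genes. Of the peaks, 17.0% in PP and 17.5% in hILO named several genes, and those assignments are uncertain. Densities are reads per kilobase of exonic peak length and per 1000000 reads in peaks, with a pseudocount of 1, and calls were made where each list held 50 or more input reads on the gene. Counting errors and Wilson intervals at 95% assume that counts are sums and reads independent molecules. The count model needs values per library and was not fitted. Functions were tested on simulated data.

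The members, the gene lists and the rule for other named genes (among coding genes, the 6 gained and 6 lost with most peaks or input reads, and the 5 kept at each end of the difference in peak number, input, IP and IP over input, of which the text gives a part) were chosen with earlier results of these data known. Ribosomal protein symbols exclude the RPS6K kinases and RPS19BP1. Tools were Python 3.11.15, pandas 2.3.3, scipy 1.17.1 and pysam 0.24.0. Alternatives covered the thresholds of the lists, read minimum, scaling, covered length and overlapping peaks. GC content and sequences are from GRCh38, coordinates 1-based. A few genes are not reported here by name or as points of a plot, and they stay in the counts.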

Additional observations from a re-analysis of the deposited data

How the results depend on the processing

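No paired analysis was possible because the deposited lists hold 1 value per peak pooled over the libraries of a stage, and for the same reason no library could be left out. With IP/input of at least 3, lost genes numbered 2973 and kept genes 5706, and 427 and 614 kept genes had 2 or more peaks more or fewer. With p below 1e-05, 4935 genes were gained, and 1780 had more and 357 fewer peaks. With p below 1e-10, 5504 were gained, 1195 lost and 5510 kept, 159 had fewer peaks, and 3 Notch and 5 proliferation genes were lost. A p threshold removes more of the thinner PP list, and so raises the gained share. With 50 input reads per peak, scaled in hILO, 687 genes had more peaks. Protein-coding genes alone gave 2157 gained and 1092 lost, and a difference of 1 peak gave 3044 up and 3008 down.

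With WT PP counted as progenitors, an alternative added after seeing the data, 1512 genes were gained and 5129 lost, and 24 islet, 1 liver and 14 ribosomal protein genes were gained. With the median set to 0, 2212 genes were higher and 2196 lower in input, 2123 and 2121 in IP, and 9 progenitor factors and 3 m6A factors were lower in input. Without a minimum of reads, 2068 were higher in input and 1816 in IP, and 343 were higher and 698 lower in IP over input. At 200 input reads these were 383, 340, 80 and 134. For IP over input, totals without the 20 most read peaks, also added later, gave 339 higher and 197 lower, turning the balance of the main 210 and 321, and the deposited log2 enrichment gave 139 and 588. The other 70 values of these counts stayed within 1.5 times.

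Among listed and named genes with a 2-fold difference in input per 1000000 reads, the log2 difference changed sign without division by covered length for FGFR1 (0.32), APOB (4.73), FOXM1 (0.40), SMAD6 (−0.27), DUSP5 (−0.68), SMAD4 (1.34), YTHDF1 (0.63), NEUROD1 (2.62) and MTF1 (−0.058). In overlapping peaks alone it did so for SMAD6 (−0.10), YTHDF1 (0.17), HEY1 (0.50) and SLC39A10 (−0.92). Relative to the median, 107 of the 177 listed and named genes were 2-fold higher or lower. Without division by length, an alternative added after seeing the data, 81 kept the call, and 8 changed sign, namely APOB (5.40), DUSP5 (−0.014), HHEX (−0.22), NDUFS1 (0.56), NEUROD1 (3.28), RAB27A (0.16), SMAD4 (2.01) and TPR (0.53). Of 65 with a value in overlapping peaks, also added later, 57 kept the call and HEY1 (1.56), RFX6 (−1.70) and ERBB2 (0.036) changed sign. VIM changed sign in enrichment when the deposited value was used (0.17). Gene-level densities compare whatever stretch each list covered, and genes with under 50 input reads or no peak in PP have no usable ratio.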

Other observations

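Ribosomal protein genes, which encode the subunits of the cytoplasmic ribosome, had more gained members than the 21.5% of all genes. Of 55 with a peak, 22 were gained, 29 kept and 4 lost, beside 21.5%, 66.7% and 11.9% of all genes. RPL36 had 2 hILO peaks with 20756 input reads and RPS19 1 with 1843, while RPL23, RPL7A, RPS10 and RPS25 were lost with 96, 15, 104 and 67 input reads in PP. Of the 22, 8 were no longer gained when WT PP was counted. Ribosomal protein genes have many processed pseudogenes, so their reads are uncertain. In the respiratory chain list 2 of 7 with a peak were gained, UQCRC2 and COX4I1, and COX5A was lost, shares of 28.6% and 14.3% near the 21.5% and 11.9% of all genes. Of 5 pluripotency markers DPPA4 was lost and LIN28A kept.

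Coding genes were also counted by the letters that open their symbol, for the 62 such groups with at least 20 genes, a grouping made after the values were seen. The GPR group of orphan G protein-coupled receptors had the highest share of gained genes, 13 of 26, and the CYP group of cytochrome P450 enzymes followed with 12 of 25, beside 21.5% of all genes. GPR119, a lipid receptor of islets and gut, had 1 hILO peak with 2955 input reads, and GPR142 2 with 2852. The COL group of collagens had the highest share of lost genes, 9 of 28, among them COL11A2 with 2413, COL9A1 with 994 and COL11A1 with 615 input reads in PP, beside 2 gained, where 11.9% of all genes were lost. These shares of all genes include lncRNA genes, and among coding genes alone 2157 were gained, 1092 lost and 8538 kept.

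The kept genes with the highest relative differences in input density were TYW1, RAP1GAP, ZNF550, AHSA1 and BBC3. They had between 60 and 248 input reads in PP and between 37336 (BBC3) and 1263051 (AHSA1) in hILO. In overlapping peaks alone RAP1GAP was at 1.11 in place of 11.02, ZNF550 at 4.18 in place of 9.16 and AHSA1 at 2.27 in place of 8.97, while BBC3 was at 8.44 beside 7.65. The lowest after SPRY2 were FUCA1, a lysosomal enzyme, from 11325 to 137 input reads, and the mitochondrial genes MT-ND2 and MT-ATP6, from 8877 to 257 and from 2307 to 166. FUCA1 was at −7.78 in overlapping peaks, and the 2 mitochondrial genes had no value in overlapping peaks.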
